A study of Mus musculus with 15 samples.

Results

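The Hox cluster genes of the mouse were followed through hematopoietic stem cells (HSCs) that had been sorted into bins by their remaining histone label. The set comprised each deposited gene symbol made of Hox, a cluster letter from a to d and a paralog number, which gave 38 of 31298 genes. These were 11 genes of the HoxA cluster, 10 of HoxB, 9 of HoxC and 8 of HoxD.

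Hox genes encode homeodomain transcription factors that give cells along the body axis their position. They lie in 4 clusters, and genes with the same paralog number in different clusters descend from a common ancestral gene. In blood, genes of HoxA and HoxB are active in stem and early progenitor cells and are shut down as cells mature, and their forced or lasting activity is a feature of several leukemias. HOX proteins bind DNA together with TALE homeodomain partners of the PBX and MEIS families, and KMT2A (also called MLL) and its partner proteins keep the loci active.

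The HSCs came from hCD34-tTA x TetO-H2BGFP mice, in which a transactivator under human CD34 regulatory sequence drives histone H2B fused to green fluorescent protein. Every mouse, including those behind the undivided sort, carried both transgenes and received doxycycline, which turns the label off so that divisions dilute it. Bone marrow cells negative for lineage markers, CD48 and Flk2 and positive for Sca1, c-Kit and CD150 were sorted into the bins GFP4, GFP3, GFP2 and GFP1 or kept undivided as Total, with 3 libraries in each of the 5 groups. Replicates I, II and III had been on doxycycline for 12, 14 and 16 weeks and were 5, 5.5 and 6.5 months old in every group. The labels state neither which end of the bin numbers retains most label, nor whether a library is 1 mouse or a pool, nor whether equally numbered libraries share mice. P-values therefore measure the spread between these libraries, which may in part be technical.

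The deposited values were log2 values made equal in distribution across the libraries by quantile normalization, so read depth is unknown. Between 4038 and 9778 genes per library sat at the lowest value, 0.14 in 14 libraries and 0.19 in Total replicate II. Linear values below are the antilog of a deposited value less 1. The 8 HSC markers together made up 2360 to 2440 ppm of the summed linear values (ppm being 0.0001%) in GFP1, against 4520 to 5360 ppm in GFP4, and 6 of the 8 were lower in GFP1 by limma's test at an adjusted p of 0.05, the rule for every marker count here. All 10 plasma cell markers were higher in GFP1 and together reached 20500 to 27300 ppm there, against 298 to 588 ppm in GFP4. In Total the same markers reached 22000 to 23900 ppm, and in GFP2 they stayed at 234 to 297 ppm. All 6 erythroid and megakaryocyte markers were also higher in GFP1, at 1030 to 1570 ppm, against 131 to 145 ppm in GFP4. Of the 6 progenitor markers, 2 were higher and 1 was lower. Cd48 and Flt3, which the sort excludes, were among them, Cd48 higher and Flt3 lower. Of 12 stromal and osteoblast markers, whose cells of origin can express Hox genes, 1 was higher in GFP1, and their sum overlapped between the bins, at 109 to 159 ppm in GFP1 and 74.2 to 246 ppm in GFP4. Of 6 endothelial markers none was higher and 2 were lower.

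The annotation of build GRCm38 places HoxA at chr6:52155590-52260880 on the minus strand, HoxB at chr11:96194316-96368256 on the plus strand, HoxC at chr15:102921103-103036852 on the plus strand and HoxD at chr2:74668310-74748442 on the plus strand. The clusters span 105.3, 173.9, 115.8 and 80.1 kb in that order. Promoter windows of 300 bases, 250 before and 50 after the annotated start, were found in RefSeq (GRCm38.p6) for 21 of the 38 genes, in 23 windows. Below are those of Hoxa9, Hoxa5 and Hoxb4, genes that were all lower in GFP1 than in GFP4. They show the most highly expressed Hox gene, a neighbour with a CpG-rich start and the only HoxB gene among those that moved for which a window was matched. Capitals mark the homeodomain core TAAT and its reverse complement. Hoxa9 is at chr6:52227321-52227620 (minus strand), Hoxa5 at chr6:52204538-52204837 (minus strand) and Hoxb4 at chr11:96318017-96318316 (plus strand).
Hoxa9: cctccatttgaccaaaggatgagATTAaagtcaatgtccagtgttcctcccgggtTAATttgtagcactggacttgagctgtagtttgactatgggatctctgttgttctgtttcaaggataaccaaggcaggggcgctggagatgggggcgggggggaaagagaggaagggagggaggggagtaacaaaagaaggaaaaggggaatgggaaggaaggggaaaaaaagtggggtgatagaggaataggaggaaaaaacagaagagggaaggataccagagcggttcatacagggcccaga
Hoxa5: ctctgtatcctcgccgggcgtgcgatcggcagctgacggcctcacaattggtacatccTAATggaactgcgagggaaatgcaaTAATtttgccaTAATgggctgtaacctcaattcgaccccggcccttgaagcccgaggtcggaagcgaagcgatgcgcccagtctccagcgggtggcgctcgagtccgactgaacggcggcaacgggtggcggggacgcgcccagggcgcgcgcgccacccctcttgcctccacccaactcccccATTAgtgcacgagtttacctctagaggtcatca
Hoxb4: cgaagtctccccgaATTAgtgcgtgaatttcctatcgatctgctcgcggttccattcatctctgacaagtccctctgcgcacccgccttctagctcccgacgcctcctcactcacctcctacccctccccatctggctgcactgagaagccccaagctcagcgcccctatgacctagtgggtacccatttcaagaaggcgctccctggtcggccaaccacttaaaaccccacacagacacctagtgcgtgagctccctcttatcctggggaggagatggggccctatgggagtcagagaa
The Hoxa9 window holds 2 such cores and 4 CpG, the Hoxa5 window 4 cores and 29 CpG, and the Hoxb4 window 1 core and 14 CpG. The Hoxa9 window lies within the gene's annotated span, chr6:52223100-52231089, because the annotation also lists a start further upstream.

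The letters TAAT, searched on both strands, occurred in 82.6% of the Hox windows and in 58.0% of all 32851 promoter windows of that length. The longer letters TGATTNAT, a form bound by HOX and PBX proteins together, occurred in 8.7% of the Hox windows, those of Hoxa2 and Hoxd11, and in 3.22% of all windows. CCAAT occurred in 60.9% of the Hox windows and in 37.4% of all, and GATAAG, bound by erythroid zinc-finger factors, in 8.7% (Hoxb4 and Hoxd8) and in 7.44%. The median window held 14 CpG in the Hox set and 7 over all windows. These matches describe the sequence and were not tested against expression.

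HoxA and HoxB carried nearly all of the Hox signal in the sorted HSCs. Levels of different genes were compared as the log2 of the mean linear value per kb of annotated exon, since longer transcripts give more reads. The sources used here do not say whether the values already allow for length, so the deposited scale is named as well. Per kb, Hoxa9, a central regulator of HSC growth, stood at 9.12, Hoxa10 at 8.44, Hoxa7 at 8.41 and Hoxa5 at 7.97. The leading HoxB genes were Hoxb5, whose reporter has been used to mark long-term HSCs, at 7.17 per kb and Hoxb2 at 7.04 per kb. Hoxb4, known for expanding HSCs when overexpressed, stood at 5.99 per kb. In HoxC the leading genes were Hoxc6 at 4.11 and Hoxc9 at 3.37 per kb, and no HoxD gene exceeded 1.2 per kb.

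Within HoxA and HoxB the level varied with the place in the cluster. Of HoxA, the paralogs 5, 6, 7, 9 and 10 exceeded 6 per kb together with paralog 3, whereas Hoxa11 stood at -1.08 and Hoxa13 at -1.95 per kb. Of HoxB, paralogs 2 to 6 stood between 5.21 and 7.17 per kb, whereas Hoxb1 stood at 3.36, Hoxb7 at 2.87, Hoxb9 at 2.7, Hoxb8 at -0.33 and Hoxb13 at -0.89 per kb. On the deposited scale, 6 HoxA and 5 HoxB genes had a mean of at least 6 over the 15 libraries, and 0 HoxC and 0 HoxD genes did. The highest single library value was 12.03 in HoxA, 9.42 in HoxB, 6.16 in HoxC and 3.5 in HoxD. Detection followed the same order. Of the 38 genes, 19 never sat at the lowest value, namely 8 in HoxA, 7 in HoxB, 4 in HoxC and 0 in HoxD. Hoxd3 sat at the lowest value in 13 of 15 libraries, Hoxd13 in 12, Hoxa13 in 11, and Hoxa11 and Hoxc11 in 10 each. Neighbours may not be independent in every case, since the annotated span of Hoxa3 overlaps those of Hoxa4, Hoxa5 and Hoxa6. The spans of Hoxc5 and of Hoxc6 to Hoxc10 overlap too, as do those of Hoxd3 and Hoxd4. Spans include introns, and overlap of exons was not computed. The library kit does not mark strand, so reads of Hoxa3 to Hoxa7 and of the antisense gene Hoxaas3 cannot be told apart where they overlap. The same holds for Hoxa3 and Hoxaas2, for Hoxb2 and Hoxb3 with Hoxb3os, and for Hoxb5 and Hoxb6 with Hoxb5os.

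**Figure D1:**
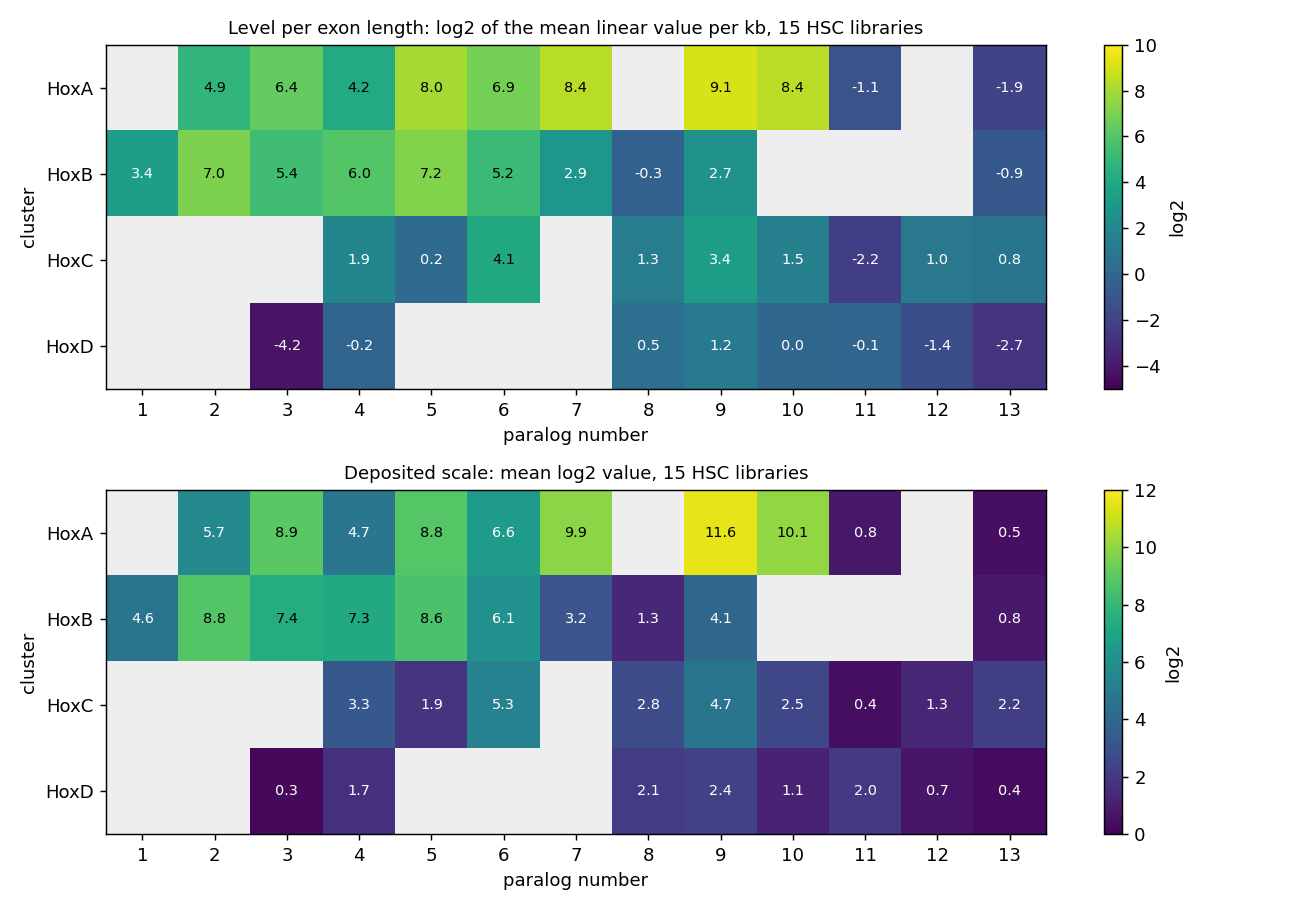
Mean level of 37 Hox genes over 15 HSC libraries, by cluster (rows) and paralog number (columns). The upper panel shows log2 of the mean linear value per kb of exon, the lower panel the mean deposited log2 value, and grey squares show no value; HoxA peaks at paralog 9 (9.12 per kb) and HoxB at paralog 5 (7.17 per kb), and no HoxD gene exceeds 1.2 per kb.

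The widest contrast set GFP1, the end of the bin series with the lower HSC marker sum, against GFP4. In it 10 Hox genes were lower in GFP1 and 0 were higher, out of 36 tested. The lower genes were Hoxa3, Hoxa5, Hoxa6, Hoxa7, Hoxa9 and Hoxa10 of HoxA and Hoxb3, Hoxb4, Hoxb5 and Hoxb6 of HoxB. Differences are log2 values, GFP1 minus GFP4, from limma with Benjamini-Hochberg adjustment over 27994 genes at a threshold of 0.05. Over all genes tested, 10.3% were called lower and 9.27% higher. At an unadjusted p under 0.05, 13 Hox genes were lower and 1 was higher, where 14.9% of all genes were lower and 13% higher. The median difference of the tested Hox genes was -0.72, against -0.07 over all genes, and 30 of the 36 were negative. Because the samples are bulk RNA, fewer cells with Hox expression and less Hox RNA per cell cannot be told apart. Hoxd3 and Hoxd13 did not reach a linear value of 1 in 3 libraries and were not tested.

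With a floor on the level, the count stayed above the share over all genes. The floor does not match the levels of the Hox genes. Of the 18 Hox genes with a mean linear value of at least 10, the same 10 were lower in the main fit, and the median difference of the 18 was -1.02. Over all 17063 genes above that level 16.5% were lower, with a median of -0.07. A fit to the genes above that level alone also called Hoxa2 lower (limma adjusted p = 0.0339). It made 5967 calls over all genes in either direction, against 5468 in the main fit. The 11 Hox genes with a mean deposited value of at least 6 correlated across the 15 libraries (median r 0.799, group differences included). Their calls may thus not be independent. All 3 GFP1 libraries lay below all 3 GFP4 libraries for 14 Hox genes, which were the 10 above with Hoxa2, Hoxc6, Hoxd8 and Hoxd12. That pattern held for 17.6% of all genes tested, and 1 Hox gene, Hoxa4, showed the opposite order. Hoxd12 passed the filter only through its GFP4 and GFP3 libraries, so its place among the 14 is not separate evidence.

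Hoxa9 measured 11.99, 11.93 and 12.03 in GFP4, 11.72, 11.98 and 11.83 in GFP3, 11.37, 11.66 and 11.61 in GFP2, and 10.85, 11.01 and 10.80 in GFP1. Every GFP1 library lay below every library of the other 3 bins, and GFP2 lay below GFP4 without overlap. Its mean was 10.89 ± 0.107 in GFP1 and 11.98 ± 0.0486 in GFP4 (SD, n = 3 each), and the difference of -1.09 (SE 0.101) had an adjusted p of 1.94e-07 in limma.

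Hoxa10, a posterior neighbour with a role in HSC and progenitor expansion, measured 10.53, 10.47 and 10.83 in GFP4, 10.16, 10.46 and 10.62 in GFP3, 10.17, 10.09 and 10.24 in GFP2, and 8.99, 9.65 and 9.42 in GFP1. The GFP1 libraries were again the lowest, and GFP3 overlapped both GFP4 and GFP2. The difference was -1.26 (SE 0.165, limma adjusted p = 1.2e-05). Hoxa7, which is activated with Hoxa9 in leukemias with KMT2A fusions, measured 10.04, 10.15 and 10.28 in GFP4, 9.97, 10.28 and 10.16 in GFP3, 9.92, 9.91 and 9.88 in GFP2, and 9.25, 9.60 and 9.45 in GFP1. Its other 3 bins lay close together and GFP1 stood apart below them. The difference of -0.72 (SE 0.129, limma adjusted p = 0.000338) was the smallest among the 10 genes.

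Hoxa5, which influences lineage choice of blood progenitors, measured 9.25, 9.35 and 9.37 in GFP4, 8.98, 8.94 and 9.07 in GFP3, 9.05, 8.80 and 8.96 in GFP2, and 8.21, 8.13 and 8.13 in GFP1. The GFP4 libraries lay above and the GFP1 libraries below all others. Its difference was -1.16 (SE 0.143, limma adjusted p = 5.59e-06). Hoxa3, a pharyngeal and thymus patterning gene, measured 9.42, 9.76 and 9.30 in GFP4, 9.0, 9.60 and 9.07 in GFP3, 8.62, 8.89 and 8.96 in GFP2, and 7.88, 8.38 and 8.25 in GFP1. Only GFP3 and GFP4 overlapped among its bins. The difference was -1.33 (SE 0.193, limma adjusted p = 3.79e-05).

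Hoxa6 measured 6.24, 7.17 and 7.42 in GFP4, 6.88, 6.84 and 7.22 in GFP3, 6.89, 6.73 and 6.77 in GFP2, and 5.47, 6.20 and 6.19 in GFP1. GFP4 replicate I stood apart from the other GFP4 libraries, close to the GFP1 values. The difference of -0.99 (SE 0.318, limma adjusted p = 0.0337) was the least secure of the HoxA genes. Its adjusted p was 0.127 without GFP4 replicate II, 0.184 without GFP4 replicate III and 0.169 without GFP1 replicate I.

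In HoxB, Hoxb5 measured 8.52, 8.93 and 9.32 in GFP4, 8.72, 8.87 and 9.16 in GFP3, 8.94, 8.46 and 8.90 in GFP2, and 7.74, 7.47 and 7.91 in GFP1. The other 3 bins overlapped and GFP1 lay below all of them. Its difference was -1.22 (SE 0.21, limma adjusted p = 0.000235). Hoxb4 measured 7.22, 7.56 and 7.78 in GFP4, 7.45, 7.61 and 7.75 in GFP3, 7.34, 6.97 and 7.85 in GFP2, and 6.73, 6.72 and 6.19 in GFP1. All GFP1 libraries were again the lowest. The difference was -0.97 (SE 0.27, limma adjusted p = 0.0137), and the adjusted p was 0.0736 without GFP4 replicate III and 0.084 without GFP1 replicate III.

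Hoxb3, studied together with Hoxb4 for its part in HSC proliferation, measured 7.70, 7.96 and 7.56 in GFP4, 7.71, 7.83 and 7.99 in GFP3, 7.67, 7.37 and 7.53 in GFP2, and 6.53, 6.72 and 6.92 in GFP1. GFP1 stood apart and the other bins overlapped. The difference was -1.02 (SE 0.272, limma adjusted p = 0.0103), with an adjusted p of 0.0534 without GFP4 replicate II. Hoxb6, which can immortalise myeloid progenitors when overexpressed, measured 6.02, 6.53 and 7.06 in GFP4, 6.40, 6.44 and 6.71 in GFP3, 6.05, 5.84 and 6.76 in GFP2, and 4.89, 5.20 and 5.54 in GFP1. Its libraries spread more widely than those of Hoxb5, and GFP1 was still the lowest bin without overlap. The difference was -1.33 (SE 0.363, limma adjusted p = 0.012), with an adjusted p of 0.0828 without GFP4 replicate III and 0.0562 without GFP1 replicate I.

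**Figure D2:**
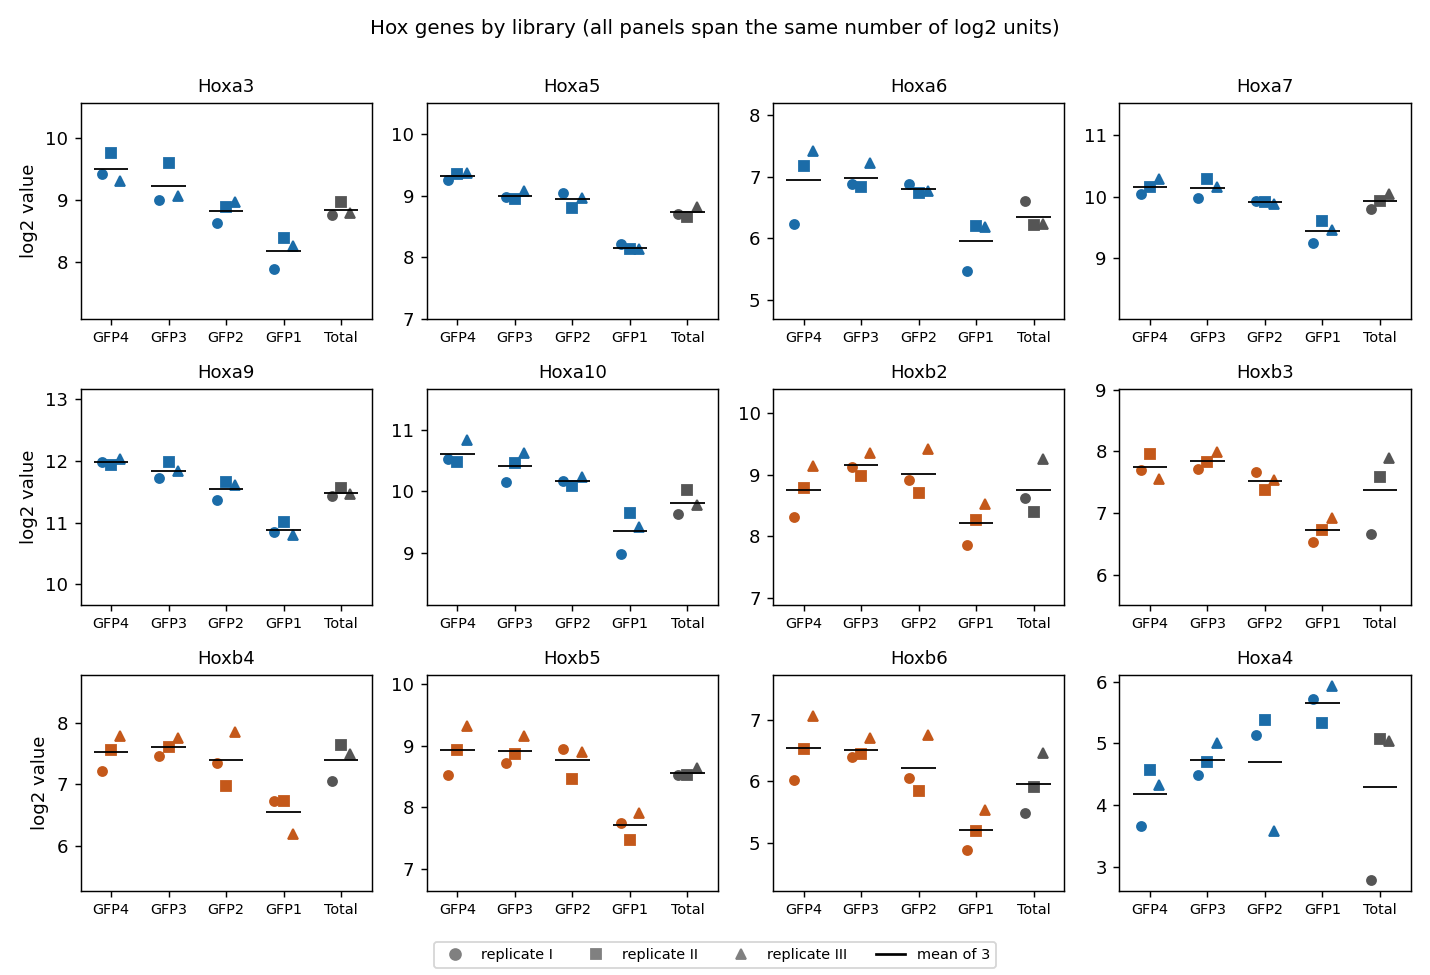
Deposited log2 values of 12 Hox genes in each library (y axis) by bin and Total (x axis), with points for replicates I, II and III and a line at the mean of 3. In the 10 genes called lower all 3 GFP1 points lie below all 3 GFP4 points; Hoxb2 is shown as the gene with the highest mean of HoxB on this scale and Hoxa4, chosen after its values were seen, runs the other way.

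Hoxb2, the HoxB gene with the highest mean on the deposited scale, measured 8.32, 8.78 and 9.14 in GFP4, 9.12, 8.98 and 9.36 in GFP3, 8.91, 8.71 and 9.42 in GFP2, and 7.86, 8.26 and 8.53 in GFP1. Its GFP1 and GFP4 libraries overlapped, and the difference of -0.53 (SE 0.255, limma adjusted p = 0.182) did not pass. It was called in 1 of the 15 alternatives, the fit with the replicate number as a block (limma adjusted p = 0.0367). Hoxc6, the leading HoxC gene, measured 5.09, 6.16 and 5.81 in GFP4, 5.51, 5.96 and 5.85 in GFP3, 5.76, 4.71 and 4.89 in GFP2, and 5.05, 4.75 and 4.20 in GFP1. GFP1 lay below GFP4 without overlap by a narrow margin. Its difference of -1.02 (SE 0.42) was as large as that of Hoxb3 but had a limma adjusted p of 0.107.

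HoxC and HoxD gave no call in this contrast, with 0 of 9 and 0 of 6 tested genes past the threshold. At an unadjusted p under 0.05 each had 1 gene lower, Hoxc6 and Hoxd12. The median difference was -0.66 in HoxC and -0.13 in HoxD, beside -0.99 in HoxA and -0.99 in HoxB. Whether the clusters differ in this was not tested, and most HoxC and HoxD genes lie near the lowest value, where log2 differences are compressed and standard errors wide. Hoxd9, the leading HoxD gene, measured 0.14, 2.85 and 2.18 in GFP4, 3.15, 2.21 and 3.15 in GFP3, 2.77, 2.10 and 1.58 in GFP2, and 1.70, 3.50 and 3.02 in GFP1. Its libraries overlapped across all bins and the difference of 1.02 (SE 0.772, limma adjusted p = 0.469) did not pass.

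Hoxa4, an axial patterning gene named here after its values were seen, went against its neighbours. It measured 3.65, 4.57 and 4.33 in GFP4, 4.48, 4.70 and 5.01 in GFP3, 5.14, 5.38 and 3.58 in GFP2, and 5.72, 5.33 and 5.93 in GFP1. All 3 GFP1 libraries lay above all 3 GFP4 libraries. The difference of 1.47 (SE 0.592) had a limma adjusted p of 0.097 with all 15 libraries and 0.0313 when only GFP1 and GFP4 were fitted. The Hoxa4 span lies within that of Hoxa3 and under the antisense gene Hoxaas3.

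**Figure D3:**
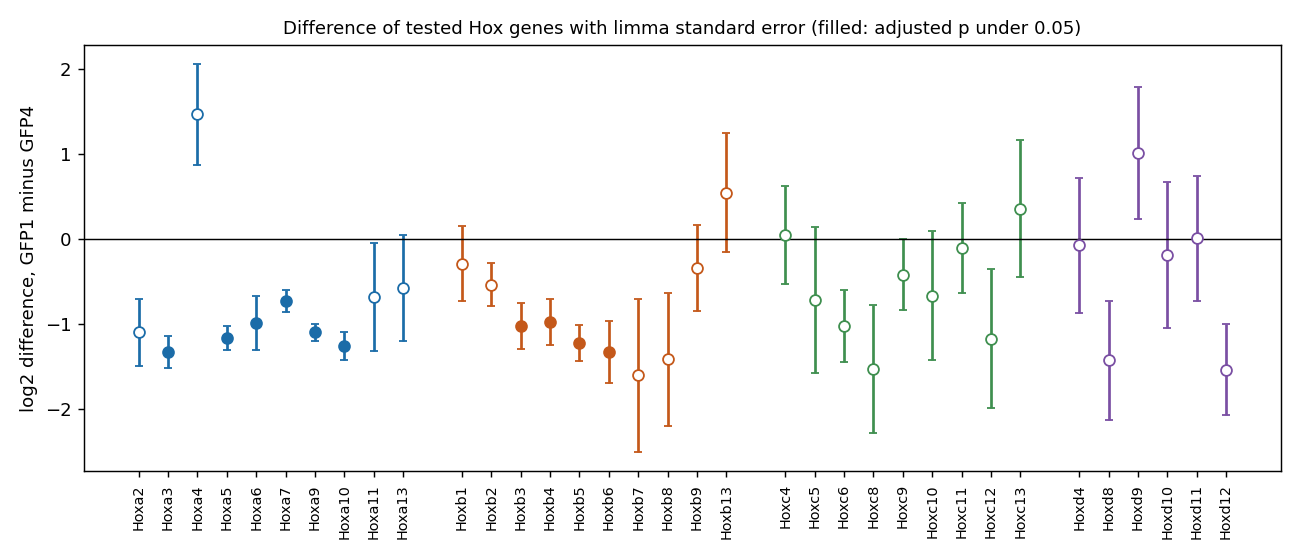
Log2 difference, GFP1 minus GFP4 (y axis), of 35 tested Hox genes ordered by cluster and paralog number (x axis), with limma's standard error; filled points passed an adjusted p of 0.05. The 10 filled points lie between -0.72 and -1.33, all in HoxA paralogs 3 to 10 and HoxB paralogs 3 to 6.

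Across the bin series, the linear trend was lower for 11 Hox genes and higher for 0, and at an unadjusted p under 0.05 for 16 and 1. Over all genes 10.5% were called lower and 9.6% higher, and at the unadjusted level 15.2% were lower and 13.2% higher. The 11 were the 10 genes above and Hoxd12, which passed the filter only through its GFP4 and GFP3 libraries. Hoxa9 fell by 0.36 per step from GFP4 towards GFP1 (SE 0.032, limma adjusted p = 1.21e-07), and Hoxa3, with a mean of 8.17 in GFP1 and 9.49 in GFP4, fell by 0.44 per step (SE 0.061, limma adjusted p = 2.23e-05). Without GFP4 replicate III the count was 7, with Hoxa6, Hoxb4, Hoxb6 and Hoxd12 no longer called, at limma adjusted p of 0.16, 0.0587, 0.0644 and 0.0654 in that order. Calls over all genes, in either direction, fell from 5618 to 4809 in that fit.

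Hoxd12, a limb patterning gene of the posterior end of HoxD, was listed at 1.54, 1.06 and 2.42 in GFP4 and at 2.06, 0.72 and 1.85 in GFP3. It sat at the lowest value in all 3 GFP2, all 3 GFP1 and all 3 Total libraries. The trend of -0.60 per step (SE 0.169, limma adjusted p = 0.0142) rests on values close to the lowest, so its size has no firm scale. Hoxd12 passed the filter only through GFP4 and GFP3, the bins where it is high, so the call is not separate evidence of a fall. In GFP1 against GFP4 its limma adjusted p was 0.0505.

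The share of the difference already present in GFP2 varied among the genes that moved. The GFP2 mean had covered 50.5% of the GFP1-GFP4 difference for Hoxa3, 39.9% for Hoxa9, 35.3% for Hoxa10, 34.6% for Hoxa7, 33.4% for Hoxa5 and 14.4% for Hoxa6. For HoxB it had covered 24.1% for Hoxb6, 21.4% for Hoxb3, 13.8% for Hoxb4 and 13% for Hoxb5. Most of the difference thus lay in the last step for all 4 HoxB genes and for every HoxA gene of the 6 except Hoxa3. Whether HoxA and HoxB differ in this shape was not tested.

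**Figure D4:**
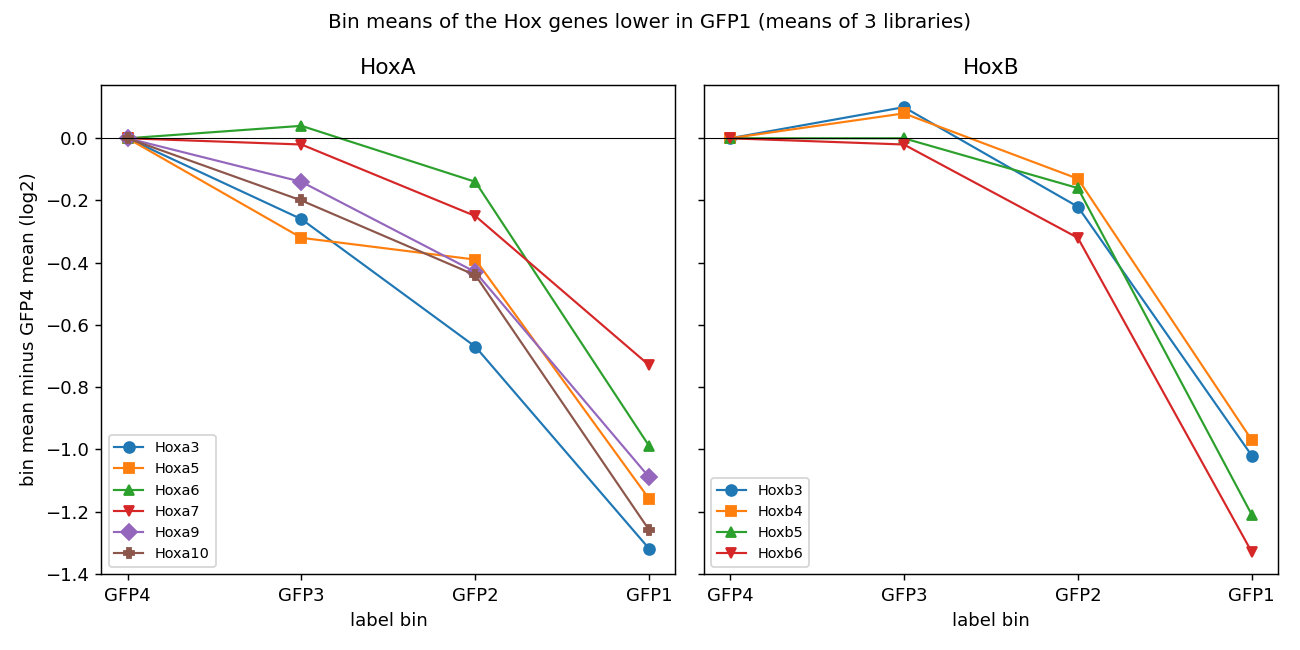
Mean of each bin minus the GFP4 mean, in log2 units (y axis), along the label bins (x axis) for the 6 HoxA and 4 HoxB genes lower in GFP1; each point compares means of 3 libraries. The GFP2 points of HoxA cover 14.4% to 50.5% of the GFP1 difference and those of HoxB 13% to 24.1%.

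The steps between bins gave few calls outside the last. GFP3 against GFP4 had 0 Hox genes called, where 0.0572% of all genes were called in either direction. At an unadjusted p under 0.05, 1 Hox gene (Hoxa5) was lower, where 2.52% of all genes were lower. GFP2 against GFP3 had 0 Hox genes and 0% of all genes called, and at an unadjusted p under 0.05 had 3 Hox genes lower (Hoxa9, Hoxa11 and Hoxd12) and 0 higher, against 748 lower and 821 higher over all genes. Hoxa11 and Hoxd12 sat at the lowest value in every GFP2 library. Hoxa11 passed the filter only with its GFP3 values and Hoxd12 only through GFP4 and GFP3, so neither is separate evidence of a fall. GFP1 against GFP2 had 6 Hox genes lower, where 4.1% of all genes were called lower. These were Hoxa3 (-0.66, limma adjusted p = 0.0439), Hoxa5 (-0.77, 0.00192), Hoxa7 (-0.47, 0.0296), Hoxa9 (-0.66, 0.000391), Hoxa10 (-0.81, 0.004) and Hoxb5 (-1.06, 0.00336). Hoxa3 and Hoxa7 lost their calls on leaving out single libraries, with adjusted p up to 0.208 and 0.152 without GFP1 replicate I, and the other 4 kept theirs in all 6 such fits. Hoxa3 and Hoxa7 also lost their calls with quantile normalization without immunoglobulin genes (limma adjusted p of 0.115 for Hoxa3 and 0.0622 for Hoxa7) and with median-of-ratios rescaling (0.0706 for Hoxa3 and 0.0544 for Hoxa7). Hoxa3 lost its call as well with no filter on low values (0.0507) and with only GFP1 and GFP2 fitted (0.0608). Beside these Hox genes, all 10 plasma cell markers and all 6 erythroid and megakaryocyte markers were higher in GFP1 than in GFP2 and 5 of the 8 HSC markers were lower. Their part in the Hox differences was not tested.

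GFP2 against GFP4 was the widest contrast between bins that both had low plasma cell markers. In it 1 Hox gene, Hoxa9, was lower, with a difference of -0.44 (SE 0.101, limma adjusted p = 0.0157), and 1.67% of all genes were called lower. At an unadjusted p under 0.05, 5 Hox genes were lower and 0 higher, where 6.65% of all genes were lower and 7.5% higher. With GFP1 and Total left out of the fit, Hoxa9 still had an adjusted p of 0.0158. The call was lost without GFP4 replicate I (adjusted p = 0.0611), GFP4 replicate III (0.0741) or GFP2 replicate I (0.124). Hoxa3 had a difference of -0.67 and an adjusted p of 0.0561. Other markers moved between these bins. Of the 6 erythroid and megakaryocyte markers 4 were higher in GFP2, at a sum of 357 to 472 ppm in GFP2 and 131 to 145 ppm in GFP4. Of the 8 HSC markers 4 were lower, at 3560 to 3750 ppm in GFP2 and 4520 to 5360 ppm in GFP4. Their part in the Hoxa9 difference was not tested.

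Against the undivided sort, GFP4 had 4 Hox genes higher, where 4.7% of all genes were called higher. Hoxa9 averaged 11.98 ± 0.0486 in GFP4 (SD, n = 3), against 11.43, 11.56 and 11.46 in Total, and was higher by 0.50 (limma adjusted p = 0.00267). Hoxa10 averaged 10.61 ± 0.189 in GFP4, against 9.64, 10.03 and 9.78 in Total, and was higher by 0.79 (limma adjusted p = 0.00338). Both genes lay above Total in every GFP4 library. Hoxa5 averaged 9.32 ± 0.0629 in GFP4, against 8.70, 8.66 and 8.82 in Total, and was higher by 0.60 (limma adjusted p = 0.00947). Hoxa3 averaged 9.49 ± 0.24 in GFP4, against 8.75, 8.97 and 8.78 in Total, and was higher by 0.66 (limma adjusted p = 0.0339), a call lost in 4 of the 6 fits that left out a library, with adjusted p up to 0.168 without GFP4 replicate II. The Hoxa3 call was also lost with quantile normalization without immunoglobulin genes (limma adjusted p = 0.05005) and with array weights (0.0587). With only GFP4 and Total fitted, neither Hoxa3 (0.0605) nor Hoxa5 (0.0662) passed. All 4 genes belong to HoxA, and their GFP4 libraries all lay above their Total libraries. In the same contrast all 10 plasma cell markers were lower in GFP4, at 298 to 588 ppm against 22000 to 23900 ppm in Total. All 6 erythroid and megakaryocyte markers were lower too, at 131 to 145 ppm in GFP4 and 558 to 944 ppm in Total, and 4 of the 8 HSC markers were higher, at 4520 to 5360 ppm in GFP4 and 2540 to 3460 ppm in Total. Their part in the Hox differences was not tested.

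GFP3 against Total had 0 Hox genes called, where 2.14% of all genes were called in either direction. At an unadjusted p under 0.05, 4 Hox genes were higher and 1 lower, where 7.16% of all genes were higher and 6.53% lower. Leaving out GFP3 replicate I gave 1 call, Hoxa10 (limma adjusted p = 0.0395), with 597 calls over all genes in either direction against 599 in the main fit. GFP2 against Total had 0 called, where the share of all genes was 0.329%. At an unadjusted p under 0.05, 1 Hox gene was higher and 1 lower, where 3.57% of all genes were higher and 3.16% lower. GFP1 had 2 Hox genes lower than Total, where 1.41% of all genes were lower. Hoxa9 was lower in GFP1 (difference -0.59, limma adjusted p = 0.00362). Hoxb5 averaged 7.71 ± 0.225 in GFP1, against 8.52, 8.53 and 8.64 in Total, and was lower (difference -0.86, limma adjusted p = 0.0422), a call lost on leaving out any of the 6 libraries (adjusted p 0.0759 to 0.168). The Total means lay between those of GFP1 and GFP4 for all 10 genes that were lower in GFP1. GFP1 and Total both carried high plasma cell markers, in ranges that overlap. The stromal and osteoblast, endothelial and sort-excluded sums overlapped as well. The progenitor sums stood apart, at 828 to 1580 ppm in GFP1 and 414 to 702 ppm in Total, as did 2 further lists. The HSC markers made up 2360 to 2440 ppm in GFP1 and 2540 to 3460 ppm in Total, with 5 of the 8 lower in GFP1. The erythroid and megakaryocyte markers made up 1030 to 1570 ppm in GFP1 and 558 to 944 ppm in Total, with 1 of the 6, Gp5, higher in GFP1. The part of any marker list in the calls for Hoxa9 and Hoxb5 was not tested.

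Summed over the clusters, HoxA made up 219 to 241 ppm of the summed linear values in GFP4, 185 to 224 in GFP3, 163 to 177 in GFP2, 99.1 to 120 in GFP1 and 149 to 167 in Total. HoxB made up 31.4 to 49.8 ppm in GFP4, 40.6 to 51.1 in GFP3, 31.9 to 47.7 in GFP2, 19.3 to 24.6 in GFP1 and 29.9 to 42.9 in Total. GFP1 lay below every other group in both clusters. HoxC stayed between 1.69 and 4.1 ppm and HoxD at or below 0.899 ppm in every library. These sums follow ranks within a library and are not shares of RNA. The part that plasma, erythroid or megakaryocyte RNA in GFP1 has in the lower Hox values was not tested. With immunoglobulin genes left out and the rest quantile normalized again, 9 of the 10 genes were still lower in GFP1 than in GFP4. The exception was Hoxa6, with a difference of -0.85 and a limma adjusted p of 0.0731.

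The TALE genes, which include the PBX and MEIS partners of HOX proteins, moved in both directions. Of 11 TALE genes tested, 4 were lower and 3 higher in GFP1 than in GFP4, with a median difference of -0.29 against -0.07 over all genes. Meis3, a MEIS family member, measured 8.31, 7.75 and 7.58 in GFP1 and 9.68, 9.88 and 9.95 in GFP4, a difference of -1.96 (limma adjusted p = 2.14e-07). Tgif1, a repressor of the same superfamily, measured 10.14, 10.65 and 10.21 in GFP1 and 11.27, 11.26 and 11.11 in GFP4 (-0.88, limma adjusted p = 8.9e-05). The GFP1 and GFP4 libraries overlapped for neither gene. Pknox1 was higher by 0.42 (limma adjusted p = 0.0114) and Pbx4 by 0.54 (limma adjusted p = 0.0306). Meis1, the main MEIS partner of Hoxa9 in blood and named here for that role, measured 14.28, 14.22 and 14.11 in GFP1 and 14.56, 14.77 and 14.56 in GFP4. It was lower (difference -0.42, limma adjusted p = 0.0308), a call kept without GFP1 replicate I and lost in the other 5 fits that left out a library, with adjusted p up to 0.128 without GFP4 replicate II. Without GFP1 replicate I the list had 0 genes higher (Pknox1 at an adjusted p of 0.0638). It had 1 higher without GFP4 replicate I, GFP4 replicate III or GFP1 replicate II, and 2 lower without any single GFP4 library or GFP1 replicate II. Meis3 and Tgif1 kept their calls in every alternative run.

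Of 18 activators of Hox transcription, 3 were lower and 6 higher in GFP1, with a median difference of -0.03. Mllt3 (AF9), a chromatin reader of the elongation machinery and a fusion partner of KMT2A in leukemia, measured 11.30, 11.65 and 11.54 in GFP1 and 13.63, 13.52 and 13.83 in GFP4. Its difference of -2.16 (limma adjusted p = 3.31e-08) exceeded that of every Hox gene that was called. Kmt2a, the histone H3 lysine methyltransferase itself, measured 12.68, 12.69 and 12.48 in GFP1 and 13.16, 13.45 and 13.27 in GFP4 (-0.68, limma adjusted p = 3.18e-05). Kat6a, an acetyltransferase of the same loci, was lower (difference -0.42, limma adjusted p = 0.00175), and Wdr5, a core subunit of KMT2 complexes, was higher by 0.48 (limma adjusted p = 0.000178). The Cdx genes, which activate Hox genes in the embryo, sat at the lowest value in 8 to 9 of 15 libraries each.

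The genes flanking the clusters did not share one direction. They were the 3 nearest protein-coding genes with a deposited value on each side of each cluster, 8.8 to 927.1 kb away. Of these 24 genes, 5 were higher and 4 lower in GFP1, with a median difference of 0.23. Snx10, a sorting nexin 564.9 kb from HoxA, was lower (difference -0.76, limma adjusted p = 1.94e-06). Cbx5, which encodes the heterochromatin protein HP1 alpha and lies 154.7 kb from HoxC, was higher by 0.98 (limma adjusted p = 4.48e-06), and Hnrnpa1, an RNA-binding protein gene beyond it, was higher by 0.71 (limma adjusted p = 4.13e-06). Calcoco1 on the other side of HoxC was lower (difference -0.65, limma adjusted p = 5.8e-05). The non-coding genes inside the clusters are not analysed here.

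**Figure D5:**
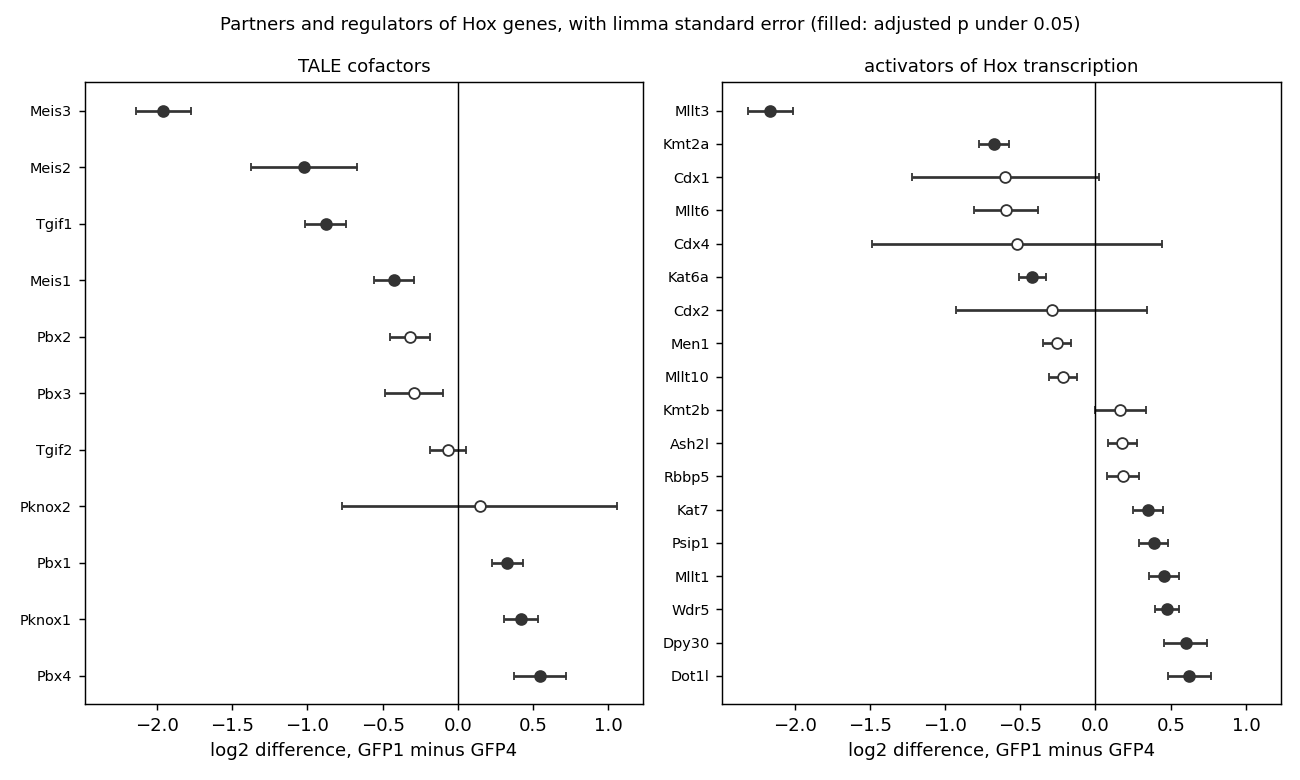
Log2 difference, GFP1 minus GFP4 (x axis), of the TALE genes (left) and the activators of Hox transcription (right), with limma's standard error. Filled points passed an adjusted p of 0.05. Meis3 (-1.96) and Mllt3 (-2.16) lie farthest to the left, and filled points lie on both sides of 0 in both panels.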

How the data were processed

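RNA of sorted HSCs was amplified with SMART-Seq v4 and made into libraries with Nextera XT, per the labels' protocols. The submitters' processing notes name kallisto 0.43.0 and GRCm38. The authors deposited log2 values, 1 row per gene symbol. From the values themselves these are quantile normalized, which removes differences in total RNA. The unit before the logarithm is not given in the sources used here, so no counting error or floor is given. Log2 values entered limma 3.58.1 (R 4.3.3) as deposited, with an intensity trend, robust moderation and 1 mean per group over 15 libraries (10 residual degrees of freedom). The linear value, used for filters and shares, is the antilog minus 1; the 27994 genes that reached 1 in 3 or more libraries entered the tests. Tests were two-sided and adjusted by Benjamini-Hochberg within a comparison at 0.05.

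The Hox genes, companion lists and marker lists were chosen with earlier results of these data known. Values in every library were given for Hox genes called in GFP1 against GFP4 or in the trend and for the gene with the highest mean of each cluster, and up to 4 genes by smallest p for each companion list. Hoxa4 and Meis1 fall outside that rule. Alternatives were other filters, pseudocounts, scalings, sample sets, array weights, the replicate number as a block and each library left out; leaving GFP1 and Total out of the fit was chosen after seeing the data. Coordinates are from GENCODE M21 and promoter windows from RefSeq. Values of 1 HoxA gene are not reported here singly, and the gene is counted only in totals.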

Additional observations from a re-analysis of the deposited data

How the results depend on the processing

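Log2 values compress differences near the lowest value, read depth is unknown, and 3 libraries a group limit precision. The 10 lower calls in GFP1 against GFP4 ranged from 7 to 11 on leaving out a library, and Hoxa3, Hoxa5, Hoxa7, Hoxa9, Hoxa10 and Hoxb5 were called in all 15 alternatives run. Over all genes, calls in GFP1 against GFP4 in either direction fell from 5468 to between 4413 and 4666 on leaving out a library. Fitting only the compared groups gave 1 higher call there (Hoxa4), 2 lower calls in GFP2 against GFP4, 2 higher calls in GFP4 against Total and 0 lower calls in GFP1 against Total. Calls over all genes, in either direction, went from 5468 to 5829, 1219 to 1329, 2799 to 1660 and 484 to 89 in that order. A mean linear value of at least 10 gave 2 lower calls in GFP2 against GFP4, 1 higher call in GFP3 against Total and 4 lower calls in GFP1 against Total. With that filter calls over all genes, in either direction, went from 1219 to 1542, 599 to 800 and 484 to 600 in that order. GFP1 against Total had 1 lower call with quantile normalization without immunoglobulin genes, with median-of-ratios rescaling and with array weights, and 1 to 2 on leaving out a library. Those 3 settings called 404, 433 and 427 of all genes in either direction, against 484 in the main fit. The fits that left out a library called 197 to 563. Leaving out a library gave 0 to 1 lower calls in GFP2 against GFP4, 7 to 13 in the trend, and 0 to 1 higher calls in GFP3 against Total. Calls over all genes, in either direction, fell in these fits too. They went from 1219 to between 534 and 1028 in GFP2 against GFP4 and from 5618 to between 4662 and 5493 in the trend. In GFP3 against Total they went from 599 to between 201 and 597. Hoxd12 passed in GFP1 against GFP4 under 4 alternatives, among them no filter (adjusted p = 0.0272). Of the TALE genes, 2 against 4 were lower in GFP1 than in GFP4 under both other scalings, with Meis1 at an adjusted p of 0.0793 without immunoglobulin genes and 0.0542 with median-of-ratios. Of the activators, 5 against 3 were lower with a mean linear value of at least 10 and with array weights. These 2 settings called 5967 and 6295 of all genes in either direction, against 5468 in the main fit. The cause of these changes was not tested. No direction was reversed.

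Equally numbered libraries, which share age and doxycycline weeks, deviated together in 20 of 30 pairs at a correlation over 0.1. Their correlations ranged from -0.389 to 0.419 with a median of 0.158, against a median of -0.068 for pairs of unlike number. Of 15 libraries, 11 correlated best with a library of their own number. The labels do not say whether such libraries share mice, and the main fit left the number out. Any effect of age or doxycycline time thus stayed in its spread. With the replicate number as a block, lower calls were 11 in GFP1 against GFP4, 2 in GFP2 against GFP4, 8 in GFP1 against GFP2, 12 in the trend and 5 in GFP1 against Total, and higher calls were 2 in GFP3 against Total. Calls over all genes, in either direction, rose too, from 5468 to 5926, 1219 to 1604 and 2007 to 2460 in the first 3. They rose from 5618 to 6064 in the trend, 484 to 714 in GFP1 against Total and 599 to 927 in GFP3 against Total. Hoxb2 was among the lower calls of that fit in GFP1 against GFP4 (adjusted p = 0.0367), GFP1 against GFP2 (0.00658) and the trend (0.0304).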

Other observations

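Hoxd11, Hoxa2 and Hoxd8, named after their values were seen, had no call in the main fit although the compared groups did not overlap. Hoxd11 and Hoxd8 lie near the lowest value. Hoxd11 measured 3.13, 1.99 and 2.47 in GFP1 and 2.12, 2.85 and 2.58 in GFP4, against 1.60, 0.19 and 0.14 in Total. It was higher in GFP4 than in Total by 1.88 (limma adjusted p = 0.127). Hoxa2 measured 4.80, 4.73 and 4.92 in GFP1 and 5.08, 6.21 and 6.45 in GFP4, without overlap. Its difference of -1.09 had a limma adjusted p of 0.0567 with all libraries and 0.00824 without GFP4 replicate I. Hoxa2 was called in 3 of the 15 alternatives, the others being a mean linear value of at least 10 (0.0339) and array weights (0.0206). Hoxd8 measured 1.31, 1.42 and 1.48 in GFP1 and 2.76, 2.75 and 2.97 in GFP4 (difference -1.42, limma adjusted p = 0.201).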
